A study of Rattus norvegicus with 12 samples.

Results

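U6 is the small nuclear RNA that forms part of the catalytic centre of the spliceosome, the nuclear machine that removes introns from messenger RNA precursors. The deposited table of raw read counts holds 796 rows whose gene name is exactly U6, each a separate copy with its own Ensembl identifier, among 30560 rows in all. The 231 copies described here are those with a summed raw count of 10 or more over the 6 libraries of isolated mitochondria. Because the mitochondria counts chose these copies, their level in mitochondria and their difference from muscle are given as a description without a test. All 12 libraries were made from the inner red portion of the gastrocnemius, a calf muscle, of 6 wild-type male rats of the Wistar Kyoto strain at 9 weeks of age. Each animal gave 1 library of each kind. The whole muscle group was untreated tissue that had been snap frozen. The mitochondria group came from fresh tissue by immunoprecipitation and was then exposed to RNase A, which cleaves RNA, and proteinase K, which cleaves protein. Both groups were depleted of ribosomal RNA, and libraries started from 50 ng of muscle RNA or 10 ng of mitochondrial RNA.

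U6 is transcribed by RNA polymerase III from a promoter that lies before the gene. The newly made RNA ends in a run of uridines that is bound first by the La protein and then by the ring of LSm proteins. U6 enters the spliceosome paired with U4 in a particle that also holds U5, is then unwound from U4, and pairs with U2 and with the intron. Mammalian genomes carry a few U6 genes with a working promoter and many dispersed copies that arose by reverse transcription of the RNA. Splicing by this machine takes place in the nucleus, and the genes of the mammalian mitochondrial genome have no introns. RefSeq's list of rat genes for GRCr8, an assembly other than that of the counts, holds 103 entries of the name pattern Rnu6 with a number, 86 of them as small nuclear RNA and 17 as pseudogenes, with lengths of 95 to 111 bases (median 107). That list carries no Ensembl identifiers and the counts come without coordinates, so no match was possible. Which of the 231 copies are among these entries is not known.

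Total counts per library were 24309444 to 32055355 in whole muscle but 720111 to 1785865 in mitochondria. A single read was thus worth 0.0312 to 0.0411 CPM (counts scaled to the library total) in muscle and 0.560 to 1.39 CPM in mitochondria. Genes of the mitochondrial genome took 26.4% to 35.9% of counts in muscle and 12.9% to 51.5% in mitochondria. All 8 rows found for skeletal muscle markers such as Acta1 and Ckm were lower in mitochondria with TMM scaling, and their summed level was 153836 to 218208 CPM in muscle and 1298 to 3378 CPM in mitochondria. Both endothelial markers were lower, with summed levels of 153 to 274 and 62.2 to 120.5 CPM, and 1 of 2 macrophage markers was higher, with 11.7 to 23.4 and 69.4 to 119 CPM. The 1 row found for blood was called lower with TMM although its CPM was higher, with 2.99 to 5.92 in muscle and 8.81 to 18.1 in mitochondria, and the nuclear retained RNAs Malat1 and Neat1 matched no row. The part of these shifts in the U6 values was not tested. The groups differ in tissue handling, isolation, enzyme treatment and RNA input together, so the parts of these steps cannot be told apart.

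Summed over the 231 copies, U6 took a far larger part of the mitochondria libraries than of the muscle libraries. Raw counts summed to 335, 653, 415, 625, 597 and 554 in mitochondria replicates 1 to 6 and to 112, 126, 136, 84, 154 and 113 in muscle replicates 1 to 6. In CPM of all counts the mitochondria libraries ranged from 350 to 467 with a median of 422, and the muscle libraries from 3.46 to 5.79 with a median of 4.14. The groups did not overlap, and the means were 416 ± 49.7 and 4.25 ± 0.812 CPM (SD, n = 6 each), a ratio of 97.9. Most genes went the same way on this scale. With total counts 84.3% of all genes tested were called higher in mitochondria, and 68.1% of all rows had groups that did not overlap, with mitochondria higher. Animal by animal, the ratio ran from 70.0 in animal 5 to 125 in animal 1. Most of the muscle level rested on 1 copy, ENSRNOG00000060360, and without it muscle had 2.04 ± 0.593 CPM, mitochondria 414 ± 49.3 CPM and the ratio was 203.

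The sum over all 796 rows named U6, which no count chose, gave the same order of size. It was 643 to 867 CPM in mitochondria and 6.42 to 9.02 CPM in muscle, with means of 769 ± 88.1 and 7.44 ± 1.06 CPM (SD, n = 6 each) and a ratio of 103. On the log2 scale that ratio was 6.69, beside a median log2 fold change of 4.61 over all genes tested with total counts. The former is a ratio of mean sums and the latter is over fitted values of single genes, so they are unlike measures. With counts thinned to 573903 nuclear reads in every library, the sum was 558 to 752 reads in mitochondria and 2 to 8 in muscle. The groups did not overlap at equal numbers of nuclear reads. Reads of the mitochondrial genome were left out of the thinning, so total depth was not matched.

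**Figure D1:**
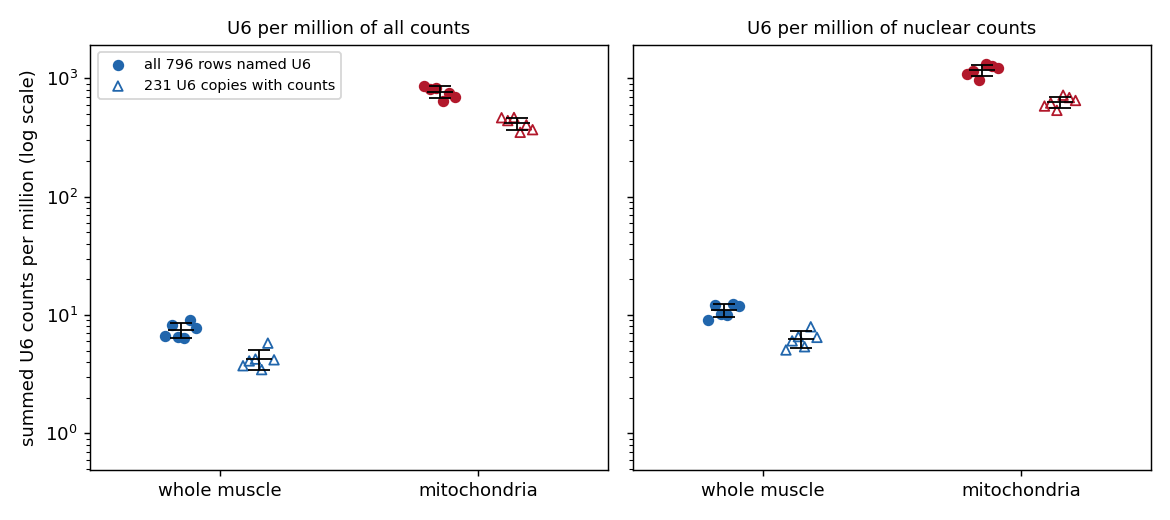
Summed U6 level in each library (log axis), in CPM of all counts on the left and in CPM of nuclear counts on the right. Filled circles are all 796 rows named U6, open triangles the 231 copies with counts, and bars the mean and SD of 6 libraries; the mitochondria libraries lie between 350 and 1325 CPM and the muscle libraries between 3.46 and 12.4.

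Among the 6 mitochondria libraries the order of U6 depended on what it was measured against. In CPM of all counts, the 796 rows were lowest in mitochondria replicate 4 (643 CPM), where the mitochondrial genome took 51.5% of counts, and highest in replicate 1 (867 CPM), where it took 20.3%. In CPM of nuclear counts, replicate 4 was the highest, with 1325, and replicate 3, where the mitochondrial genome took the least, was the lowest, with 961. The coefficient of variation over the 6 libraries was 11.5% in CPM of all counts and 11.4% in CPM of nuclear counts. Both scales share the mitochondrial genome counts, in the total or by leaving them out, and the cause of the changed order was not tested.

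Reads of the mitochondria libraries were spread thinly over almost all U6 copies. Of the 796 rows, 757 had at least 1 read in mitochondria, the median row had 6 reads over the 6 libraries together and the highest had 27. The row with the most reads held 0.459% of the family's 5883 reads, the 10 rows with the most held 4.20%, and 208 rows were needed to reach 50%. The variance of the summed count between rows was 3.51 times its mean, where counting error alone would give 1 for rows of equal level. The differences between rows were therefore larger than counting error. The table gives no lengths, and reads that match several near-identical copies may have been shared or dropped in counting, so the order of copies is uncertain.

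**Figure D2:**
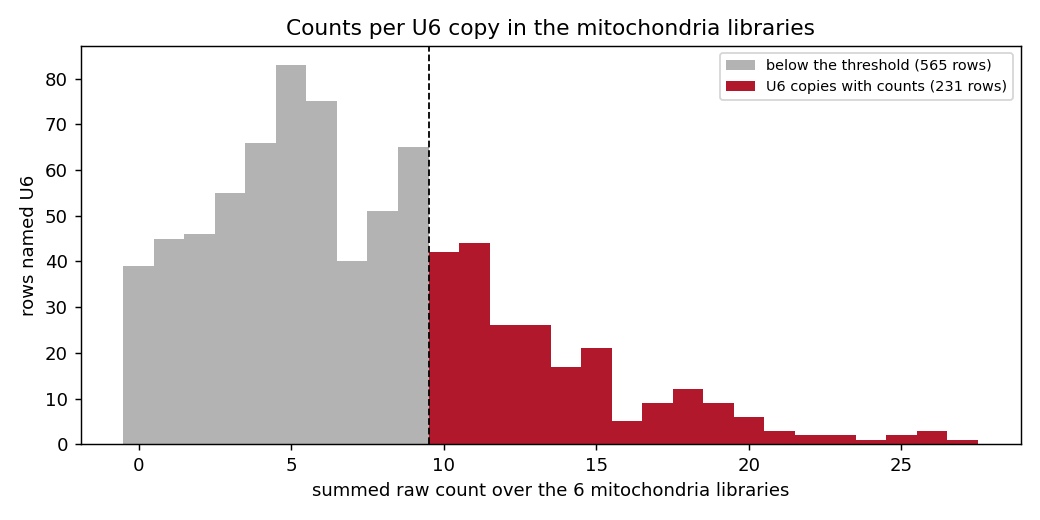
Number of rows named U6 by their summed raw count over the 6 mitochondria libraries, with the 231 copies described here in red and the 565 rows below the threshold in grey. The distribution runs from 0 to 27 with no gap at the dashed threshold, which lies between 9 and 10.

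The threshold cut through a continuous distribution. Just inside it, 42 copies had a summed count of exactly 10 and a mean level in mitochondria of 1.04 to 1.77 CPM (median 1.27). Just outside it, 65 rows had a summed count of 9 and a mean of 0.930 to 1.64 CPM (median 1.19). A muscle read was present in 7 of the former and 12 of the latter. U6 rows at the threshold made up 29.02% of the family, while 89.6% of all nuclear rows reached the same summed count.

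The copies with the highest mean level in mitochondria were ENSRNOG00000053851, ENSRNOG00000056205, ENSRNOG00000057771, ENSRNOG00000054388, ENSRNOG00000064477 and ENSRNOG00000060548. ENSRNOG00000053851 had 27 reads, with a lowest, median and highest library of 1.33, 2.76 and 9.01 CPM, and a mean of 4.02 ± 2.81 CPM (SD, n = 6). ENSRNOG00000057771 had 26 reads and 1.12, 3.16 and 9.72 CPM, and ENSRNOG00000064477 had 26 reads and 0.678, 3.09 and 6.74 CPM. Both were without a read in any muscle library, and their means were 3.87 ± 3.21 and 3.29 ± 2.13 CPM (SD, n = 6). ENSRNOG00000054388 had 26 reads but none in mitochondria replicate 1, and its highest library reached 7.88 CPM. ENSRNOG00000056205 and ENSRNOG00000060548 owed their place to mitochondria replicate 1, the shallowest library, where each had 8 reads, or 11.1 CPM, against medians of 3.36 and 1.35 CPM. At this depth no order among these copies was distinguishable from the spread between libraries. The steadiest of the copies named here was ENSRNOG00000052956, with 25 reads and 2.66, 3.36 and 3.39 CPM (mean 3.16 ± 0.340 CPM, SD, n = 6).

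Over all 231 copies the mean level in mitochondria ran from 1.04 to 4.02 CPM with a median of 1.68 CPM. A read was present in all 6 mitochondria libraries for 91 copies, in 5 for 95, in 4 for 43 and in 3 for 2. Per library, 168 to 216 of the 231 copies had a read. Once a copy's total is given, how its reads fall over the 6 libraries does not depend on the choice of members. An index of dispersion was computed from it, which sets the squared departures from the library sizes in nuclear counts against the counts themselves and is 1 for counting error alone. Its mean was 1.20 over the 231 copies (median 1.07), and 29 copies lay above 2. The 3458 other nuclear genes with summed counts in the same range had a mean of 1.25 and a median of 1.09. The spread of a U6 copy between mitochondria libraries was thus on average somewhat above counting error, and near that of other genes with as few reads. ENSRNOG00000052956 had an index of 0.246 and ENSRNOG00000060548, with its 8 reads in replicate 1, one of 3.74.

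Whole muscle, whose counts the choice did not use, had its U6 reads on few copies. Of the 231 copies, 197 (85.3%) had no read in any of the 6 muscle libraries, 16 had 1 to 3 reads, 10 had 4 to 9, and 8 had 10 or more. Of the 565 rows below the threshold 86.7% had no muscle read, a share near that of the members, whereas 32.8% of all nuclear rows had none. The 231 copies together had 725 muscle reads, of which 1 copy held 52.4% and the 10 highest 89.2%. Over all 796 rows, the 6 highest were enough to reach 50% of the 1269 muscle reads, where 208 rows were needed in mitochondria. The muscle libraries were deeper, and each had reads on 40 to 56 of the 796 rows, while each mitochondria library had reads on 371 to 543.

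**Figure D3:**
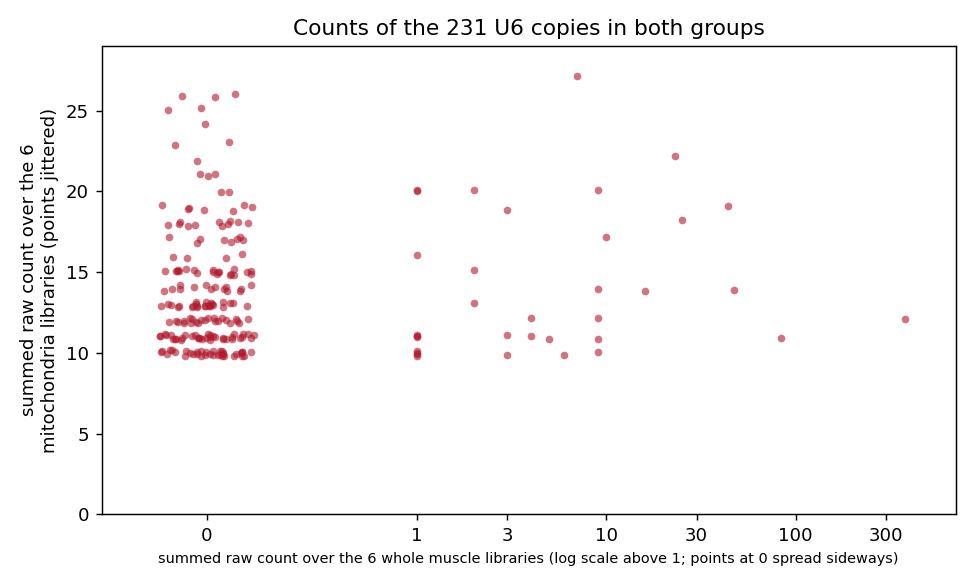
Summed raw count of each of the 231 U6 copies over 6 muscle libraries (horizontal, log scale above 1) and over 6 mitochondria libraries (vertical, points jittered). The 197 copies without a muscle read form the column at 0, and ENSRNOG00000060360 lies alone at the far right with 380 muscle and 12 mitochondria reads.

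The copy that stood apart in muscle was ENSRNOG00000060360. It had 380 muscle reads, with a lowest, median and highest library of 1.59, 2.19 and 2.89 CPM, and 12 mitochondria reads, with 0.678, 1.24 and 4.17 CPM. The groups overlapped, and it was the only one of the 231 copies whose mean was higher in muscle, at 2.20 ± 0.541 CPM against 1.74 ± 1.26 CPM in mitochondria (SD, n = 6 each). By pooled reads its ratio of mitochondria to muscle was 0.687. In mitochondria this copy was not prominent, and 119 of the other copies had more reads.

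The next copy, ENSRNOG00000055884, had 84 muscle reads (0.299, 0.493 and 0.864 CPM for the lowest, median and highest library) and 11 mitochondria reads (0, 1.01 and 6.94 CPM). Its groups overlapped too, and the pooled ratio was 2.85. ENSRNOG00000063671 had 47 muscle reads and a highest muscle library of 0.564 CPM, and 14 mitochondria reads with a median of 1.80 CPM, for a ratio of 6.48. ENSRNOG00000070552 had 44 muscle reads, with a median of 0.315 CPM, and 19 mitochondria reads, 10 of them in replicate 4, for a ratio of 9.39. In these 3 copies at least 1 mitochondria library had no read at all.

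ENSRNOG00000070766 and ENSRNOG00000057680 had reads in all 12 libraries and groups that did not overlap. The former had 0.0624, 0.110 and 0.338 CPM in muscle and 1.12, 2.7 and 4.17 CPM in mitochondria, and the latter 0.0411, 0.142 and 0.222 CPM in muscle and 2.00, 2.74 and 4.504 CPM in mitochondria. Their pooled ratios were 15.7 and 20.8. Among these 6, the highest in muscle of the 231, the mitochondria mean lay between 1.74 and 2.93 CPM while the muscle mean went from 0.133 to 2.20 CPM. The threshold on mitochondria counts sets a floor under the former, and 3 rows below it (ENSRNOG00000057063, ENSRNOG00000058504 and ENSRNOG00000060427) had muscle means of 0.372, 0.314 and 0.187 CPM, above some of these 6, with mitochondria means of 1.27, 1.17 and 1.01 CPM.

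**Figure D4:**
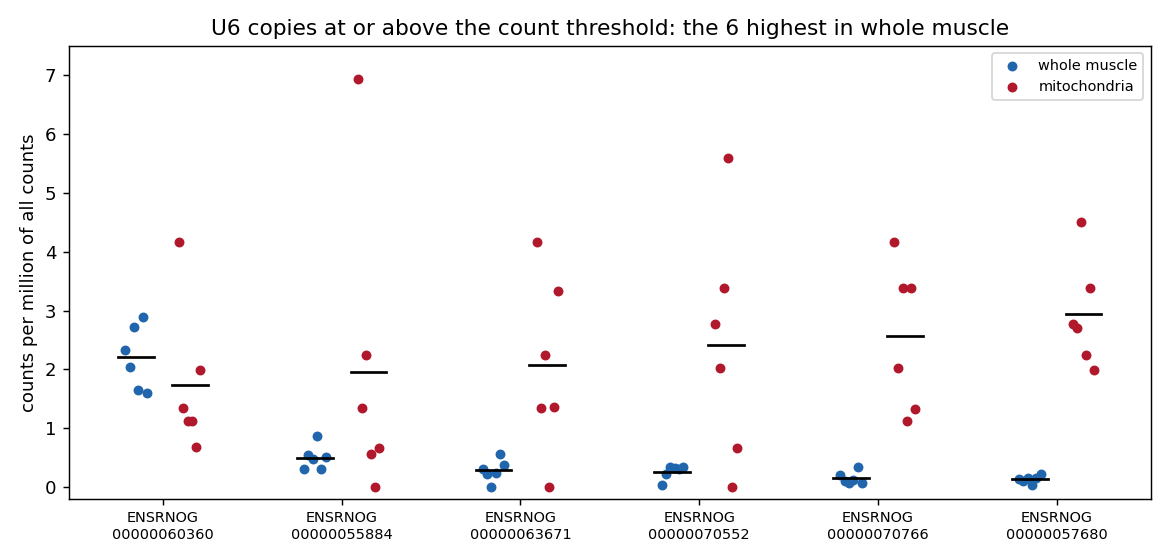
CPM in each library for the 6 copies with the highest mean in whole muscle among the 231 at or above the count threshold, in blue for muscle and red for mitochondria, with a black line at each mean of 6 libraries. The muscle mean falls from 2.20 CPM on the left to 0.133 CPM on the right, and the mitochondria means stay between 1.74 and 2.93 CPM.

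For the 197 copies without a muscle read, the floor was set at 3 reads over the 6 muscle libraries together, or 0.0176 CPM. Against it their mean in mitochondria was at least 59.5-fold to 224-fold higher, with a median of at least 95.5-fold. Because a minimum of mitochondria reads chose these copies, a high bound for each of them was fixed in advance. The lowest bound, 59.5-fold, belonged to ENSRNOG00000054402, which had 10 mitochondria reads, the minimum of that choice. Nothing about the copies is read from the size of these bounds. The counting error of the mitochondria mean is not included in these bounds. The highest bound belonged to ENSRNOG00000056205, and the 3 tested copies with the largest log2 fold change, ENSRNOG00000057771, ENSRNOG00000054228 and ENSRNOG00000052956, were at least 220-fold, 183-fold and 179.7-fold higher. ENSRNOG00000054228 had 25 reads, with 1.39, 2.41 and 5.63 CPM for the lowest, median and highest library. Among the 34 copies with a muscle read the median pooled ratio was 68.9. Pooled ratios use reads summed over libraries, while the bounds use the mean of library levels, so they are unlike measures. In that mean the shallow mitochondria replicate 1, with 11.1 CPM for ENSRNOG00000056205, weighs as much as any other library. Floors cover counting error in muscle only, and reads without molecular identifiers are not independent molecules.

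In edgeR's quasi-likelihood fit over all genes, 27 of the 231 copies passed the filter for low counts, 26 of them through reads at or above 0.766 CPM in every mitochondria library and 1, ENSRNOG00000060360, through muscle. Of the 204 that did not pass, 140 lacked a read in at least 1 mitochondria library. The fit called 26 of the 27 higher and 1 lower in mitochondria, where 63% of all 24679 genes tested were called higher and 30.3% lower. As the copies were chosen on one arm of this contrast and passed the filter through it, nothing is read from that count. Without the filter 227 copies were called higher and 1 lower, against 66.6% and 25.7% of all 29900 genes, and the other 3 were ENSRNOG00000055884, ENSRNOG00000063671 and ENSRNOG00000070552, singled out after their values were seen. DESeq2 called 228 higher and 1 lower, against 68.7% and 21.8% of all genes with an adjusted p. Groups did not overlap, with mitochondria higher, for 90 of the 231 copies, against 68.1% of all rows, and with muscle higher for 0 copies, against 5.5% of all rows. For a copy without a muscle read, the former needs only a read in all 6 mitochondria libraries. Of the 231 copies, 91 had one, so the count of 90 follows their few reads.

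The log2 fold change of ENSRNOG00000060360 was -2.57 ± 0.37 (SE) with TMM scaling, which fits library factors from the bulk of genes, and -0.51 with total counts, where it was not called and 9.03% of all genes were called lower. The other copies with a small change, ENSRNOG00000070766 and ENSRNOG00000057680, had 1.85 ± 0.48 and 2.26 ± 0.41 (SE), below the median of 2.51 over all genes tested. Most of the 27 tested copies have no muscle read, so their fitted values depend on the prior count and are no bound. ENSRNOG00000055884 did not pass the filter, and without mitochondria replicate 1 it passed and was called lower at -1.25 on the log2 scale with TMM. As this copy was chosen on its mitochondria counts, nothing is read from the call. That call rests on 2, 2, 1, 0 and 1 reads in mitochondria replicates 2 to 6. In CPM those libraries ranged from 0 to 2.25, which overlaps the muscle range of 0.299 to 0.864. Over all libraries its mean CPM was higher in mitochondria, at 1.96 against 0.500 in muscle.

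In CPM, the other spliceosomal RNA families in the table were higher in mitochondria, as were 84.3% of all genes tested with total counts. The other RNAs made by RNA polymerase III were divided: 5S ribosomal RNA was higher too, with the highest ratio of these families, and several were not higher. Summed over rows, U4, the pairing partner of U6, had 1.79 ± 0.344 CPM in muscle and 167 ± 32.7 CPM in mitochondria (SD, n = 6 each), a ratio of 93.0 beside the 103 of U6. The ratio was 51.4 for U1 and 31.0 for U2, which recognise the start of the intron and its branch point, 22.6 for U5, and 63.0 for the rare U12 of the minor spliceosome. U7, which serves histone messenger RNA ends, had 94.0, and 5S ribosomal RNA 159. On the log2 scale U6 had a ratio of 6.69, U2 one of 4.95 and U5 one of 4.496. The median log2 fold change over all genes with total counts was 4.61. Family values are ratios of mean sums, while that median is over fitted values of single genes. How near U5 and U2 were to the typical gene is therefore not read from them. In U6 and each of these 7 families the groups did not overlap, as in 68.1% of all rows with mitochondria higher. Metazoa_SRP rows, the RNA of the signal recognition particle, went from 903 ± 343 CPM in muscle to 114 ± 22.4 CPM in mitochondria, 7.91-fold lower. RNase_MRP, an RNA enzyme first described for its cleavage of mitochondrial RNA, went from 485 ± 67.4 to 50.7 ± 36.5 CPM, and in both the groups did not overlap. Vault had 9.25 ± 4.71 and 2.47 ± 1.95 CPM and Y_RNA 24.96 ± 10.8 and 27.0 ± 14.4 CPM, and in both the groups overlapped. The differences between families were not tested.

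**Figure D5:**
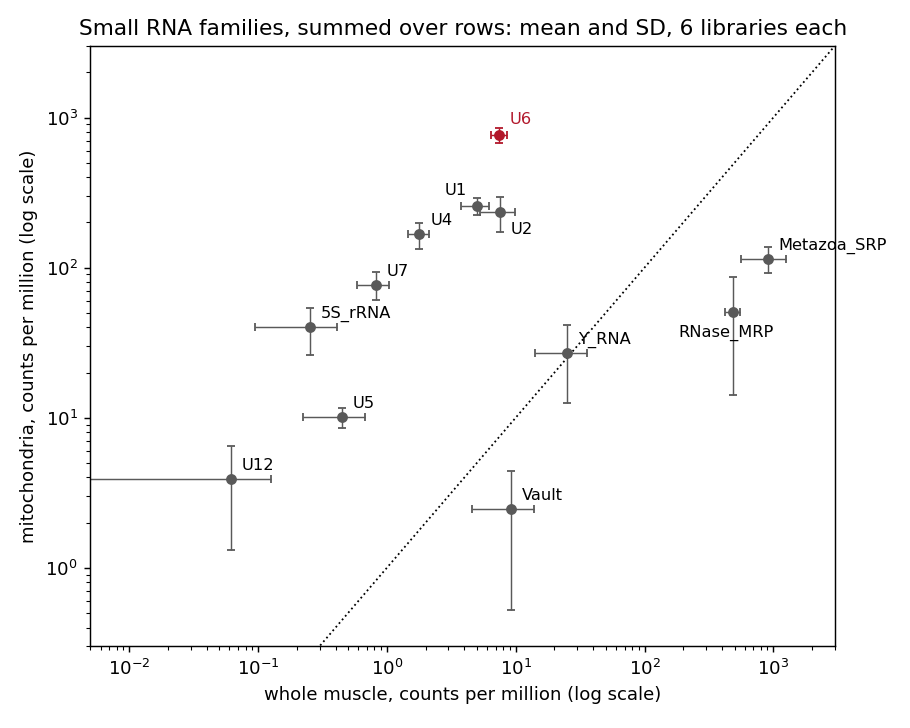
Level of each RNA family summed over its rows, whole muscle against mitochondria (both axes log scale), as mean and SD of 6 libraries per group, with U6 in red and equal levels on the dotted line. U6 and 7 other families lie far above the line, Y_RNA lies on it, and Vault, RNase_MRP and Metazoa_SRP lie below it; the SD of U12 in muscle exceeds its mean, so its bar runs to the edge.

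The families also differed in how many rows were silent in muscle and how reads were shared. No muscle read was found for 86.3% of U6 rows, 85.3% of U4, 91.8% of U7, 95.9% of 5S_rRNA, 78.8% of U2, 67.7% of U1 and 61.1% of Y_RNA rows. The share was 33.3% for U5, 25% for U12 and 23.1% for Metazoa_SRP, families of 12, 4 and 26 rows, and 32.8% for all nuclear rows. In mitochondria the row with the most reads was ENSRNOG00000070410 for U1, with 44 reads, ENSRNOG00000070463 for U4 and ENSRNOG00000068188 for U2, with 30 each, and ENSRNOG00000048993 for Metazoa_SRP, with 153. Those of U5 (ENSRNOG00000063748), U12 (ENSRNOG00000054193), U7 (ENSRNOG00000060761), Y_RNA (ENSRNOG00000059739) and 5S_rRNA (ENSRNOG00000040652) had 16, 11, 24, 22 and 22 reads. The row with the most reads held 0.459% of mitochondria reads in U6, 2.23% in U1, 2.39% in U4, 1.73% in U2, 4.20% in U7 and 7.56% in 5S_rRNA, and 12.0% in Y_RNA, 17.2% in Metazoa_SRP, 20% in U5 and 42.3% in U12. These shares also follow the number of rows, which is 796 for U6 and 26 or fewer for the last 4 families. In CPM of nuclear counts, U1 also had its lowest mitochondria library in replicate 3 (331), as U6 did, whereas U2 had its highest there (372).

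Genes for proteins that make, modify or bind U6 were tested in the same fit, and their direction depended on the scaling. Of 46 tested rows, 4 were higher and 26 lower in mitochondria with TMM scaling (edgeR, against 63% and 30.3% of all genes), and 38 were higher and 3 lower with total counts (against 84.3% and 9.03%). Their median log2 fold change was -0.43 and 1.64 under these scalings, below the 2.51 and 4.61 over all genes. Txnl4a, Prpf24 and Bdp1 matched no row by symbol, and the promoter factor Znf143 is counted under its rodent symbol Zfp143.

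Of 22 tested rows for proteins of the U6 particle and of the complex of U4, U6 and U5, 13 were lower and 1 higher, and with total counts 1 was lower and 18 higher. Prpf8, the large scaffold protein around the catalytic centre, went from 141 ± 6.92 to 94.4 ± 20.03 CPM (SD, n = 6 each; log2 fold change -2.71 ± 0.10, SE, edgeR adjusted p = 3.85e-21), and its groups did not overlap. Prpf8 was also lower with total counts, by -0.59 (edgeR adjusted p = 0.000566). Snrnp200, the helicase that unwinds U6 from U4, had 92.5 ± 6.85 and 91.3 ± 18.6 CPM, which is -2.15 with TMM (edgeR adjusted p = 6.73e-18) and -0.04 with total counts (edgeR adjusted p = 0.832). Sart1, which holds the 3-part complex together, had 41.7 ± 2.89 and 55.0 ± 19.4 CPM, which is -1.75 with TMM (edgeR adjusted p = 4.80e-15) and 0.37 with total counts (edgeR adjusted p = 0.0365). A copy of Lsm6 (ENSRNOG00000066480), of the ring that binds the end of U6, was the one row called higher, from 9.08 ± 1.11 to 53.8 ± 18.01 CPM (0.43 with TMM, edgeR adjusted p = 0.00212).

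Of 6 genes for end processing, modification and capping, 4 were lower and 1 higher, and with total counts 1 was lower and 4 higher. Ssb, the La protein, went from 27.8 ± 2.62 to 11.9 ± 3.79 CPM and was lower under both scalings, by -3.32 (edgeR adjusted p = 7.73e-19) and -1.25 (edgeR adjusted p = 1.43e-07). Mepce, which caps the related 7SK RNA, had 29.4 ± 3.66 and 31.4 ± 8.22 CPM, -2.05 with TMM and 0.05 with total counts (edgeR adjusted p = 5.04e-16 and 0.777). Larp7, a La-related protein, was lower with TMM by -1.08 and higher with total counts by 1.02 (edgeR adjusted p = 1.19e-09 and 9.22e-07), with 14.2 ± 1.34 and 29.8 ± 7.24 CPM. Usb1, the exonuclease that trims the end of U6, was higher, from 2.31 ± 0.383 to 17.2 ± 7.68 CPM (0.72 with TMM, edgeR adjusted p = 0.00108).

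Of 18 tested genes for U6 promoter factors and RNA polymerase III, 9 were lower and 2 higher, and with total counts 1 was lower and 16 higher. Polr3k, a small polymerase subunit, went from 21.6 ± 2.48 to 11 ± 3.61 CPM and was lower under both scalings, by -3.11 and -1.02 (edgeR adjusted p = 1.13e-18 and 2.07e-05). Polr3d had 34.3 ± 4.301 and 30.9 ± 11.1 CPM, -2.33 with TMM and -0.21 with total counts (edgeR adjusted p = 8.40e-16 and 0.277). Polr3a, the largest subunit, had 19.8 ± 2.60 and 70.6 ± 17.3 CPM, -0.31 with TMM (edgeR adjusted p = 0.0140) and 1.81 with total counts (edgeR adjusted p = 2.73e-16). The lower call of Polr3a was lost without muscle replicate 1, 2, 3, 5 or 6 (-0.14 to -0.23), and the value was 0.060 with RLE factors and 0.054 with DESeq2. Snapc4, of the complex that recognises the U6 promoter, went from 2.03 ± 0.318 to 62.7 ± 13.7 CPM and Polr3g from 0.775 ± 0.288 to 26.7 ± 5.15 CPM, with log2 fold changes of 2.82 ± 0.14 and 2.97 ± 0.22 (SE, edgeR adjusted p = 4.27e-18 and 1.36e-13).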

How the data were processed

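Whole muscle and mitochondria of 6 rats were sequenced. The authors deposited raw counts in 1 table, with gene names and Ensembl identifiers and no coordinates. FastQC 0.74, cutadapt 4.6, STAR 2.7.11a, HTSeq and the build mRatBN7.2 are named in the submitters' processing notes. No source used here gives the annotation release, the strand setting or what was done with reads matching several places, so reads of a copy and of a gene overlapping it cannot be told apart. One listed gene is not reported here and was left out of its list. The members and gene lists were chosen with earlier results of these data known.

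CPM values scale counts to all gene counts of a library; the 37 rows of the mitochondrial genome were left out for nuclear values. Genes were tested with edgeR 4.0.16 in R 4.3.3 (glmQLFit, glmQLFTest, TMM, filterByExpr minimum count 10, no term beside group, Benjamini-Hochberg threshold 0.05), after a check on simulated counts. A standard error is the size of the log2 fold change over the root of its F statistic. Named copies were the 6 highest in each group, the 3 largest and 3 smallest fold changes among those tested, and any with a higher muscle mean; named list genes were the 3 most abundant in muscle per list and any against its list's direction. No replicate columns were identical. Replicate numbers pair the groups, as both libraries come from the same animal per the labels; deviations from the group means correlated between -0.00747 and 0.0201 within animals. Alternatives were RLE factors, total counts, nuclear genes alone, no filter, DESeq2 1.42.0, the animal as a block, each library left out, thinning, other thresholds and, chosen after seeing the data, the sum without ENSRNOG00000060360.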

Additional observations from a re-analysis of the deposited data

Results flagged for a closer look

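Each item here is a library whose gap to its nearest neighbour was large against the range of its group of 6, by Dixon's criterion at 95%, which chance alone meets in about 1 of 20 groups; 7 of 77 groups met it. The summed level of the 231 U6 copies was 5.79 CPM in whole muscle replicate 5, against 3.46 to 4.24 CPM in the others. Mitochondria replicate 1, the shallowest library, had 11.1 CPM for ENSRNOG00000056205 (others 0.560 to 4.504 CPM), 11.1 CPM for ENSRNOG00000060548 (others 1.12 to 3.33 CPM) and 6.94 CPM for ENSRNOG00000055884 (others 0 to 2.25 CPM), which are 8, 8 and 5 reads. ENSRNOG00000070552 had 0.0333 CPM, or 1 read, in whole muscle replicate 1, against 0.227 to 0.343 CPM in the others. Sart1 had 92.3 CPM in mitochondria replicate 3, against 39.9 to 57.3 CPM. The U2 rows summed to 12.0 CPM in whole muscle replicate 6, against 5.64 to 7.15 CPM.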

How the results depend on the processing

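The ratio of the summed copies was 97.9 and stayed between 94.4 and 106 with any 1 library left out. It was 101.3 in CPM of nuclear counts, 103 over all rows named U6 and 115 after thinning. The thinned value rests on 1 random draw, with 0 to 5 reads of these copies per muscle library. Without ENSRNOG00000060360, a setting chosen after seeing the data, the ratio was 203. Of the 27 copies tested among the 231, 26 were called higher and 1 lower, against 63% and 30.3% of all genes tested. No filter gave 227 of 231 higher and DESeq2 228, against 66.6% and 68.7% of all genes. A summed mitochondria count of at least 20, in the same fit as the 63% and 30.3%, gave 13 higher and 0 lower. None of the copies reached 50. As the copies were chosen on their mitochondria counts, nothing is read from these numbers. Leaving out a mitochondria library let 33 to 50 copies pass the filter (50 without replicate 1). Of these, 30 to 47 were called higher (most without replicate 1) and 1 to 2 lower (2 without replicate 1). Over all genes those fits called 15959 to 16363 higher and 7462 to 7514 lower, of 25287 to 25696 tested. Nothing is read from these counts of copies either. Without any 1 muscle library none of the 231 passed, since the filter follows the median library size, which is then a mitochondria library. Total counts and nuclear genes alone gave 0 lower each. Over all genes, 15544 were higher and 7470 lower, and 2228 and 2291 were lower with total counts and with nuclear genes alone.

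For the U6 protein genes, 4 were higher and 26 lower; RLE factors and DESeq2 gave 12 higher each, total counts 38 higher and 3 lower, nuclear genes alone 37 higher and 3 lower, and single libraries left out 5 to 7 higher (7 without muscle replicate 1, 2, 3 or 6). With total counts and with nuclear genes alone, log2 fold changes turned from below to above 0 for Sart1 (0.37 and 0.41), Mepce (0.054 and 0.10), Larp7 (1.02 and 1.08) and Polr3a (1.81 and 1.86), and for Snrnp200 with nuclear genes alone (0.0096). Polr3a also turned with RLE factors (0.060) and DESeq2 (0.054). Without muscle replicate 1, 2, 3, 5 or 6 Polr3a was no longer called, at -0.14 to -0.23. The cause was not tested. With the animal as a replicate block, 26 copies were higher and 1 lower, 4 and 26 of the protein genes, and 15511 and 7427 of all genes, and no call of a named gene changed. The depth of the mitochondria libraries limits the order among single copies.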

Other observations

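Some U6 rows with a summed mitochondria count under 10 had more muscle reads than most of the 231 copies. ENSRNOG00000057063, singled out after its values were seen, had 65 muscle reads (0.372 ± 0.188 CPM) and 8 mitochondria reads (1.27 ± 0.981 CPM), and ENSRNOG00000058504 had 52 (0.314 ± 0.189 CPM) and 9 (1.17 ± 0.901 CPM; SD, n = 6 each). ENSRNOG00000060427 had 31 and 8 reads. In all 3 the groups overlapped.

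The RNA of RNase MRP varied far more between mitochondria libraries than U6 did. In CPM of nuclear counts it was 17.4, 116.5, 56.9, 98.1, 172 and 16.4 in mitochondria replicates 1 to 6, while the U6 rows lay between 961 and 1325. In muscle the same RNA ranged from 572 to 916.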
